A study of Homo sapiens with 6 samples.

Results

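The genes of fibronectin and of the matricellular proteins were followed in 12Z cells with and without recombinant human chemerin. The set held 10 genes, chosen by symbol among the 16279 rows of the deposited tables: FN1, SPARC, THBS1, THBS2, CCN1, CCN2, TNC, POSTN, TGFBI and SPP1. All 10 were present and all 10 passed the filter on low counts. Rows were picked by symbol and not by a measured value, but the symbols were chosen with earlier results of these data known. The 12Z line is a long-established human line of epithelial cells from endometriosis, labelled here as endometrial epithelial cells. Cells of the NC group (n = 3 libraries) received nothing, and cells of the rhChemerin group (n = 3) received 10 ng/mL of the recombinant protein for 48 h. Both groups were the same line, and neither carried a genetic change made for the experiment. The labels call the 3 libraries of a group biological replicates without saying whether they came from separate passages, so that p-values measure the spread between these libraries.

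Fibronectin is a large dimeric glycoprotein that cells assemble into fibrils by pulling on it through integrins. Matricellular proteins are secreted into the same matrix but do little to hold it together. They bind integrins, growth factors, proteases and structural matrix proteins and so tune adhesion, migration and signalling. In the endometrium this matrix is remodelled in each cycle, and its proteins are ligands for the integrins that take part in attachment of the embryo.

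Library totals, summed over genes, ran from 35430881 to 38341643 counted reads. The lowest count of any of the 10 genes in any library was 156 and the highest 178182, and for SPP1, the least counted, counting error alone gives a coefficient of variation (CV) of about 7.55% in the NC group, close to the 8.11% seen between those libraries. rhChemerin replicate 3 stood apart: its Pearson correlations of log2 CPM (counts scaled to a common library size) with the other 5 libraries, across genes, were 0.948 to 0.976, and those among the other 5 were 0.975 to 0.990. It was the highest or lowest of the 6 libraries in 66.3% of the 13311 tested genes, and it lay at an extreme in 7 of the 10 genes here. For the set and the named genes of the related lists, values without that library are given below where it moves them by more than 1.5 times or changes a call.

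The label of the cells was checked against marker genes. The keratin genes KRT8, KRT18 and KRT19 were abundant, with mean FPKM (reads scaled by gene length and by the library's counted reads) of 820, 608 and 295 in the NC group. The epithelial adhesion genes EPCAM and CDH1 were near 0, at 0.599 and 0.310 FPKM, and the epithelial splicing factor ESRP1 at 0.0374 FPKM. Markers of fibroblasts were plentiful in the same cells. COL1A1 had 1042, COL3A1 616 and LUM 115 FPKM in the NC group. The 10 fibroblast markers summed to 1717 to 2213 FPKM in the NC libraries and 1196 to 2331 FPKM in the rhChemerin libraries, so the groups overlapped. The 12 epithelial markers summed to 1597 to 1868 FPKM and 1761 to 1977 FPKM, an overlap as well. These sums are carried by the 3 keratins and by the collagens, and single markers stood apart: EPCAM (log2 fold change -1.46) and CDH1 (-1.14) were lower in all treated libraries, and FAP (0.81), MME (0.86) and PDGFRA (0.79) were higher in all of them. KRT8 (0.29) and KRT19 (0.27) were higher in all treated libraries on TMM-normalized log2 CPM, explained below, but overlapped on FPKM. On that TMM scale the groups did not overlap in 32.5% of all tested genes. Of the 9 tested epithelial markers, 5 had a log2 fold change above 0 and 4 below. Of the 10 fibroblast markers, 7 were above 0 and 3 below. Those below were PDGFRB (-0.60), COL1A2 (-0.47) and COL3A1 (-0.16), with overlapping groups. Among those above 0, THY1 (0.10), COL1A1 (0.01) and LUM (0.01) were near 0. The 5 smooth muscle markers summed to 42.3 to 50.3 FPKM in the NC group and to 13.9 to 27.3 FPKM with rhChemerin, without overlap. Most of each sum came from ACTA2, at 34.7 to 42.0 FPKM in NC libraries and 11.4 to 23.5 FPKM in rhChemerin libraries. ACTG2 went the other way at a low level, with a mean of 0.0918 FPKM in NC and 0.658 FPKM in rhChemerin, and was not tested. MYH11, the defining myosin of smooth muscle, was at or near 0 in all libraries. The 5 endothelial markers summed to 1.61 to 2.01 FPKM and 0.991 to 1.41 FPKM. The immune markers summed to 122 to 171 FPKM and 92.7 to 136 FPKM, almost all of it from CD68 and CD14, while PTPRC, which marks leukocytes, averaged 0.0294 FPKM in the NC group and CD3E and MS4A1 had no row. CD14 had 51.5, 41.1 and 36.9 FPKM in NC cells and 21.2, 15.2 and 6.64 FPKM in treated cells. Of the 27 tested markers edgeR called 0, against 0.0301% of all tested genes. DESeq2 called 9, against 9.05% of all its tested genes. Of these 9, MME, FAP and PDGFRA were higher and DES, CNN1, ACTA2, CD14, VWF and MUC1 lower (DESeq2 adjusted p from 1.79e-05 for DES to 0.0404 for MUC1). The part of these differences in the results below was not tested. In bulk RNA, fewer cells of a type and less RNA per cell cannot be told apart.

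Levels ranged widely, with 5 of the 10 among the 200 most abundant genes. By mean FPKM over the 6 libraries, SPARC ranked 16, TGFBI 47, THBS2 52, CCN1 95 and FN1 188 of 16279 genes. POSTN ranked 624, CCN2 1242, TNC 1948, THBS1 6045 and SPP1 7455. Together the 10 genes took 1.21% to 1.46% of all counts in the NC libraries and 1.07% to 1.39% in the rhChemerin libraries. In the NC group the order of mean FPKM was SPARC, THBS2, TGFBI, CCN1, FN1, POSTN, CCN2, TNC, THBS1 and SPP1. Most neighbours in this order were apart in every NC library. The exceptions were THBS2 and TGFBI, and TGFBI and CCN1, whose libraries overlapped. In the rhChemerin group TGFBI (714 FPKM) and THBS2 (509 FPKM) stood in the opposite order, and 4 pairs of neighbours overlapped: SPARC and TGFBI, TGFBI and THBS2, CCN2 and TNC, and THBS1 and SPP1.

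**Figure D1:**
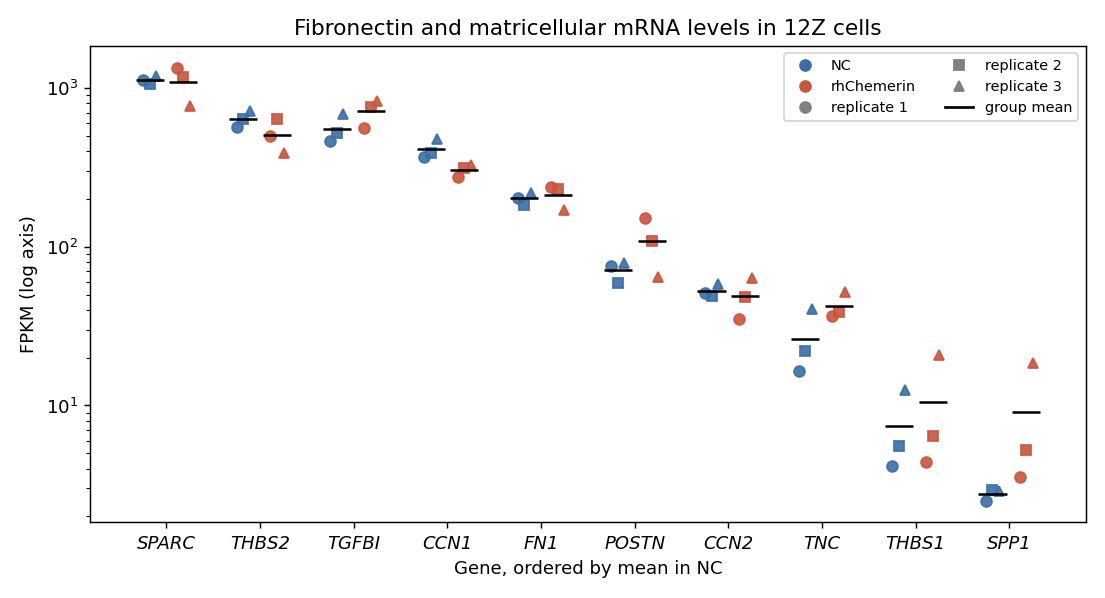
FPKM of each gene (log axis) in the 3 NC libraries (blue) and the 3 rhChemerin libraries (red), with circles, squares and triangles for replicates 1, 2 and 3 and the group mean as a black line; genes are ordered by their NC mean, from SPARC at 1122 FPKM to SPP1 at 2.77 FPKM. The rhChemerin points of SPP1 lie above all its NC points, and THBS1 is highest in replicate 3 of both groups.

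No gene of the set had an adjusted p under 0.05 with edgeR's quasi-likelihood test (0 of 10). Over all 13311 tested genes the share called was 0.0301%. The smallest adjusted p in the set was 0.149, for SPP1. Without adjustment, 3 of the 10 had p under 0.05 (SPP1, POSTN and TNC), against 22.8% of all tested genes. DESeq2 also called 0 of the 10, with 9.05% of all its tested genes called, a smallest adjusted p of 0.0560 for POSTN, and 4 genes at an unadjusted p under 0.05, against 21.1% of all its genes. The fitted log2 fold change was above 0 in 8 genes and below 0 in 2, with a median of 0.35 beside 0.01 over all tested genes. Of all 13311 tested genes, 6886 were above 0 and 6425 below. With library size as the sole scaling, the medians were 0.22 and -0.12, and SPARC (-0.04) and CCN2 (-0.11), 2 of the 8, were below 0. TMM normalization scales each library by 1 factor and assumes that most genes do not change. On log2 CPM with TMM normalization, the groups did not overlap in 1 of the 10 genes (SPP1, higher with rhChemerin). Over all tested genes the share was 32.5%, and 16.5% with the rhChemerin group higher.

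The calls also depended on which libraries entered the fit. Without rhChemerin replicate 3, DESeq2 called 4 of the 10 (FN1, POSTN and SPP1 higher, CCN1 lower), where it called 12.1% of all tested genes, and edgeR called 1 (POSTN), where it called 3.07%. Without rhChemerin replicate 1, DESeq2 called 2 (TGFBI and SPP1, against 18.3% of all tested genes) and edgeR called 1 (SPP1, against 6.24%). DESeq2 also called SPP1 without rhChemerin replicate 2 (4.27% of all tested genes) and TNC without NC replicate 3 (3.81%). The DESeq2 fits with a library left out were chosen after seeing the data.

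**Figure D2:**
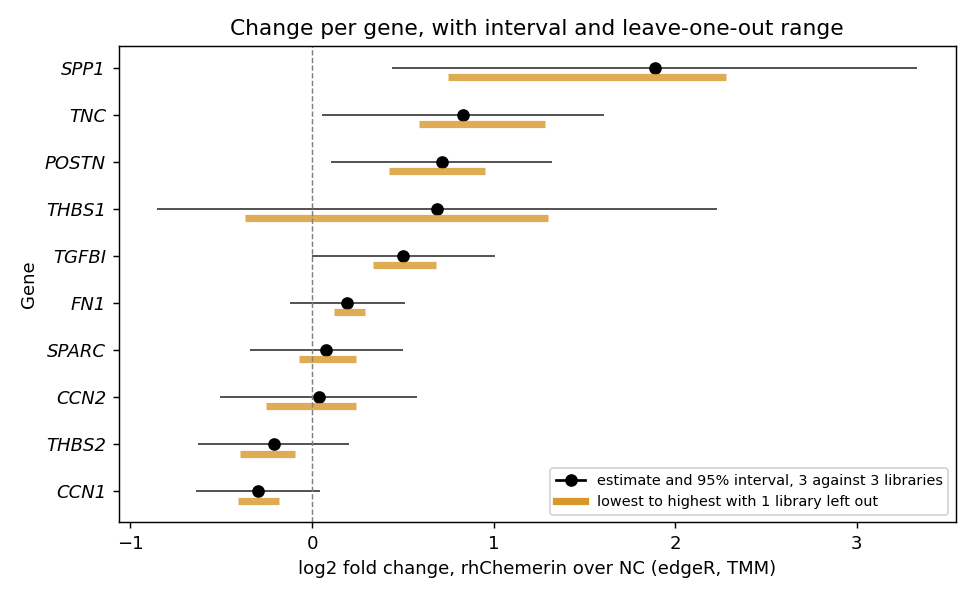
Fitted log2 fold change of rhChemerin over NC for each gene (edgeR, TMM), with its 95% interval as a thin line and, in orange, the lowest to highest value when 1 of the 6 libraries is left out. The intervals of SPP1, TNC and POSTN lie above 0 before adjustment, and the orange bars of THBS1, SPARC and CCN2 cross 0.

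FN1 encodes fibronectin (chromosome 2, 215360440 to 215436172, minus strand; positions are those of GENCODE release 29 on GRCh38). Its FPKM was 204, 183 and 220 in NC replicates 1, 2 and 3 and 238, 230 and 170 in rhChemerin replicates 1, 2 and 3. Treated replicates 1 and 2 were above every NC library, and treated replicate 3 was below every one on this scale, but inside the NC range on TMM-normalized log2 CPM. The log2 fold change was 0.19 (standard error 0.14, 95% interval -0.12 to 0.51, adjusted p = 0.412, edgeR). This interval leaves room for a fold between 0.918 and 1.42. Without rhChemerin replicate 3 the log2 fold change was 0.29 (adjusted p = 0.142 with edgeR and 0.0313 with DESeq2), and over all alternatives the adjusted p lay between 0.0313 and 0.828. The deposited values are per gene, so the alternatively spliced extra domains of FN1 and of TNC cannot be read from them.

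SPP1 encodes osteopontin, a phosphorylated integrin ligand that also binds CD44 (chromosome 4, 87975650 to 87983426). It had the lowest level of the 10 and the largest difference. Its FPKM was 2.52, 2.92 and 2.89 in the NC libraries and 3.53, 5.27 and 18.4 in the rhChemerin libraries. Read counts behind these values were 156, 188 and 182 in NC cells and 237, 335 and 1206 in treated cells. All treated libraries were above all NC libraries, and treated replicate 3 was far above the other two. edgeR fitted a log2 fold change of 1.89 (standard error 0.62, 95% interval 0.44 to 3.33, adjusted p = 0.149, edgeR), a fold of 3.70. Single libraries decided its size and its call. Without rhChemerin replicate 3 it was 0.75 (fold 1.68, adjusted p = 0.105), and without rhChemerin replicate 1 it was 2.28 (adjusted p = 0.0437, where 6.24% of all tested genes were called). DESeq2 gave an adjusted p of 0.0897 with all libraries and of 0.0336 without rhChemerin replicate 3. The range over the alternatives was 2.60e-05 to 0.400.

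TNC encodes tenascin C, a hexameric glycoprotein that loosens adhesion to fibronectin and is deposited where tissue is remodelled (chromosome 9, 115019578 to 115118257, minus strand). Its FPKM was 16.5, 22.0 and 40.5 in NC cells and 36.9, 38.8 and 51.9 in treated cells. The groups overlapped through NC replicate 3, which was above treated replicates 1 and 2. edgeR gave a log2 difference of 0.83 (standard error 0.33, 95% interval 0.06 to 1.61, adjusted p = 0.199, edgeR). DESeq2 gave an adjusted p of 0.0670, within a range of 1.75e-07 (DESeq2 with the replicate number as a block) to 0.475 over the alternatives. Without NC replicate 3 the log2 fold change was 1.29 (adjusted p = 0.249, edgeR) and the treated libraries were all higher. DESeq2 without NC replicate 3 gave an adjusted p of 6.93e-05.

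POSTN and TGFBI encode periostin and TGFBIp, secreted paralogs built of fasciclin domains that bind integrins and collagen. POSTN (chromosome 13, 37562583 to 37598844, minus strand) had 75.4, 59.4 and 79.2 FPKM in NC cells and 152, 109 and 64.5 FPKM in treated cells. Treated replicates 1 and 2 were above every NC library, and treated replicate 3 lay inside the NC range. Its log2 fold change was 0.71 (standard error 0.26, 95% interval 0.11 to 1.32, adjusted p = 0.172, edgeR). Without rhChemerin replicate 3 it was 0.95 with an adjusted p of 0.0379 (edgeR, where 3.07% of all tested genes were called), and without rhChemerin replicate 1 it was 0.42. Over all alternatives the adjusted p of POSTN ran from 1.12e-06 to 0.450.

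TGFBI (chromosome 5, 136028895 to 136063818), a gene named for its induction by TGF-beta, had 461, 521 and 685 FPKM in NC cells and 562, 758 and 824 FPKM in treated cells. NC replicate 3 was above treated replicate 1, so the groups overlapped. Its fitted log2 difference was 0.50 (standard error 0.22, 95% interval -0.0026 to 1.01, adjusted p = 0.220, edgeR). With edgeR the value was from 0.33 (without rhChemerin replicate 3) to 0.68 with 1 library left out. DESeq2 called the gene without rhChemerin replicate 1 (adjusted p = 0.00473), and over all alternatives its adjusted p ran from 0.00191 (DESeq2 with the replicate block) to 0.493. The ratio of TGFBI to POSTN FPKM was 6.12, 8.77 and 8.64 in NC libraries and 3.69, 6.96 and 12.8 in treated libraries. The difference in its mean log2 was -0.17 (exact two-sided permutation test, p = 0.80, with 0.10 the smallest p that 3 libraries against 3 allow). It turned to 0.28 without rhChemerin replicate 1 and was -0.61 without rhChemerin replicate 3, -0.34 without NC replicate 1, -0.076 without NC replicate 2 and -0.087 without NC replicate 3.

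THBS1 and THBS2 encode the trimeric thrombospondins, which bind CD47 and the matrix. Thrombospondin-1 can also activate latent TGF-beta. THBS1 (chromosome 15, 39581079 to 39599466) had 4.16, 5.55 and 12.5 FPKM in NC cells and 4.42, 6.41 and 20.8 FPKM in treated cells. Replicate 3 was the highest of its group in both groups. Its log2 fold change was 0.69 with a standard error of 0.66, the largest standard error of the set (95% interval -0.86 to 2.23, adjusted p = 0.547, edgeR). Without rhChemerin replicate 3 its direction turned, to -0.37, and without NC replicate 3 the value was 1.30. THBS1 shares 859 of its 9158 annotated exon bases with genes on the opposite strand, and the strand setting of the counting is not given in the sources used here. SPARC (381 bases), CCN2 (195) and TNC (129) also share exon bases with opposite-strand genes, so some reads of these 4 genes may come from their partners.

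THBS2 (chromosome 6, 169215780 to 169254044, minus strand) was at a level above that of its paralog in every library. Its FPKM was 568, 641 and 717 in NC cells and 502, 634 and 391 in treated cells. The groups overlapped, with treated replicates 1 and 3 below every NC library. Treated minus NC, the fitted log2 difference was -0.21 (standard error 0.18, 95% interval -0.63 to 0.21, adjusted p = 0.493, edgeR), and -0.09 without rhChemerin replicate 3. THBS2 FPKM exceeded THBS1 FPKM by 57.3 to 137 times in NC libraries and by 18.8 to 114 times in treated libraries, with the lowest multiple in rhChemerin replicate 3. The log2 ratio of THBS1 to THBS2 differed between the groups by 0.70 (exact two-sided permutation test, p = 0.50), by -0.13 without rhChemerin replicate 3, by 1.17 without rhChemerin replicate 1, by 1.07 without rhChemerin replicate 2, by 1.08 without NC replicate 3 and by 0.45 without NC replicate 1.

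CCN1 and CCN2 encode paralogous cysteine-rich proteins that bind integrins and heparan sulphate. Both are well-known target genes of the co-activators YAP and TAZ, which act through the TEAD transcription factors. CCN1 (chromosome 1, 85580761 to 85583962) had 369, 391 and 479 FPKM in NC cells and 275, 311 and 329 FPKM in treated cells. On this scale all treated libraries were below all NC libraries. After TMM normalization they were not, since rhChemerin replicate 3 has the smallest scaling factor (0.898, against 0.973 to 1.05 in the others). On that scale, log2 CPM relative to the NC mean was -0.14, -0.08 and 0.22 in NC cells and -0.51, -0.29 and -0.10 in treated cells. edgeR fitted a log2 fold change of -0.30 (standard error 0.15, 95% interval -0.64 to 0.04, adjusted p = 0.264, edgeR), which ran from -0.41 to -0.18 with 1 library left out. It was -0.41 without rhChemerin replicate 3, where DESeq2 gave an adjusted p of 0.0245. Over all alternatives the adjusted p of CCN1 reached from 0.0245 to 0.604.

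CCN2 (chromosome 6, 131948176 to 131951373, minus strand) had 51.0, 48.7 and 58.6 FPKM in NC cells and 35.2, 48.1 and 63.4 FPKM in treated cells. Treated replicate 1 was the lowest of the 6 libraries and treated replicate 3 the highest. Its log2 fold change was 0.04 (standard error 0.23, 95% interval -0.51 to 0.58, adjusted p = 0.935, edgeR), and -0.26 without rhChemerin replicate 3. With library size as the sole scaling it was -0.11. CCN1 FPKM was 7.24, 8.02 and 8.18 times that of CCN2 in NC libraries and 7.83, 6.47 and 5.19 times in treated libraries. The log2 ratio differed between the groups by -0.28 (exact two-sided permutation test, p = 0.20), with treated replicate 1 inside the NC range. The difference was -0.13 without rhChemerin replicate 3 and -0.43 without rhChemerin replicate 1.

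The bases just before the start of CCN2 and of the thrombospondin genes hold the core letters bound by TEAD factors, and these sequences are shown for that reason. RefSeq gave a promoter for 9 of the 10 genes, and the 250 bases before the start were searched on both strands for GGAATG. It was found in 4 of the 9: CCN2 with 3 copies, THBS2 with 2 in opposite orientation, THBS1 with 1 and SPARC with 1. Of 35116 RefSeq promoters, 11.9% held at least 1 copy in the same window, 0.940% at least 2 and 0.0826% at least 3. The starts used were those of RefSeq. By the GENCODE spans, the whole SPARC sequence and most of the THBS2 sequence lie inside the gene. The sequences below run 5′ to 3′ on the gene's own strand (build GRCh38.p14), with GGAATG, or CATTCC where it lies on the other strand, in capitals.
CCN2, chr6:131951373-131951622, minus strand: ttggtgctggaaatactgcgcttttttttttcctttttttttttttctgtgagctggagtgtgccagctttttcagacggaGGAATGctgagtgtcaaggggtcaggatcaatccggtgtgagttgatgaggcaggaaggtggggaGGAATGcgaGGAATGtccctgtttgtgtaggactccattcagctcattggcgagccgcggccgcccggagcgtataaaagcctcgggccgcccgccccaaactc
THBS2, chr6:169253847-169254096, minus strand: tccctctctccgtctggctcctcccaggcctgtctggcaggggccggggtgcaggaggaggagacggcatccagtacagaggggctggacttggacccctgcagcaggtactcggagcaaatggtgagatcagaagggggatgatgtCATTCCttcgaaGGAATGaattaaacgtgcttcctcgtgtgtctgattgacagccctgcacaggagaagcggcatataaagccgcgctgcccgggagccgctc
THBS1, chr15:39580829-39581078, plus strand: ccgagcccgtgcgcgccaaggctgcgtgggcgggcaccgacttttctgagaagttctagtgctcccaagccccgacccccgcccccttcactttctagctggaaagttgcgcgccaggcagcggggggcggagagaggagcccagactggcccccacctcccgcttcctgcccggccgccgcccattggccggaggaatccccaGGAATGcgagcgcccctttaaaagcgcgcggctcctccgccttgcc
SPARC, chr5:151686916-151687165, minus strand: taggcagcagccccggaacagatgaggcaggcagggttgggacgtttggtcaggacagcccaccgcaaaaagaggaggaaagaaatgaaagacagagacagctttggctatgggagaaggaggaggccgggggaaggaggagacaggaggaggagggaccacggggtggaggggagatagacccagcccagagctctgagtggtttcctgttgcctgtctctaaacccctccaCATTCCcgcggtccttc
The AP-1 heptamer TGANTCA was found in 1 of the 9 promoters, that of POSTN, and in 6.57% of all promoters. The CArG box of serum response factor was in none of the 9 and in 1.16% of all. None of these matches overlapped another. A match gives letters and not a binding site. The log2 fold changes of the 4 genes with the TEAD core were 0.04 for CCN2, -0.21 for THBS2, 0.69 for THBS1 and 0.08 for SPARC, and none passed the test.

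SPARC encodes osteonectin, a collagen-binding glycoprotein that limits cell spreading (chromosome 5, 151661096 to 151687165, minus strand). It was the most abundant of the 10. Its FPKM was 1119, 1060 and 1188 in NC cells and 1347, 1168 and 767 in treated cells. Treated replicate 1 was the highest of the 6 libraries and treated replicate 3 the lowest. Its fitted log2 difference was 0.08 (standard error 0.18, 95% interval -0.34 to 0.50, adjusted p = 0.811, edgeR). It was 0.24 without rhChemerin replicate 3, -0.07 without rhChemerin replicate 1 and -0.04 with library size as the sole scaling.

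The treated libraries differed among themselves more than the NC libraries did in most of the set. The SD of FPKM was larger in the rhChemerin group in 8 of 10 genes, with TNC and CCN1 as the exceptions. By CV it was larger in 7 of 10, with TGFBI (20.8% in NC, 19.1% in rhChemerin) as a further exception. For neither count was the share over all tested genes computed, and rhChemerin replicate 3 lay at an extreme in 66.3% of those genes. The ratio of the highest to the lowest treated library was 5.22 for SPP1, 4.71 for THBS1 and 2.36 for POSTN, against 1.16, 3.01 and 1.33 in the NC group. On TMM-normalized log2 CPM, rhChemerin replicate 3 was the highest of the 6 libraries in 5 genes (THBS1, CCN2, TNC, TGFBI and SPP1) and the lowest in 2 (SPARC and THBS2). On FPKM it was the lowest in FN1 as well. NC replicate 3 was the highest NC library in 9 of 10 genes, against 37.1% of all tested genes. In 5 genes (THBS1, CCN1, CCN2, TNC and TGFBI) replicate 3 was the highest in both groups, against 19.7% of all tested genes.

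**Figure D3:**
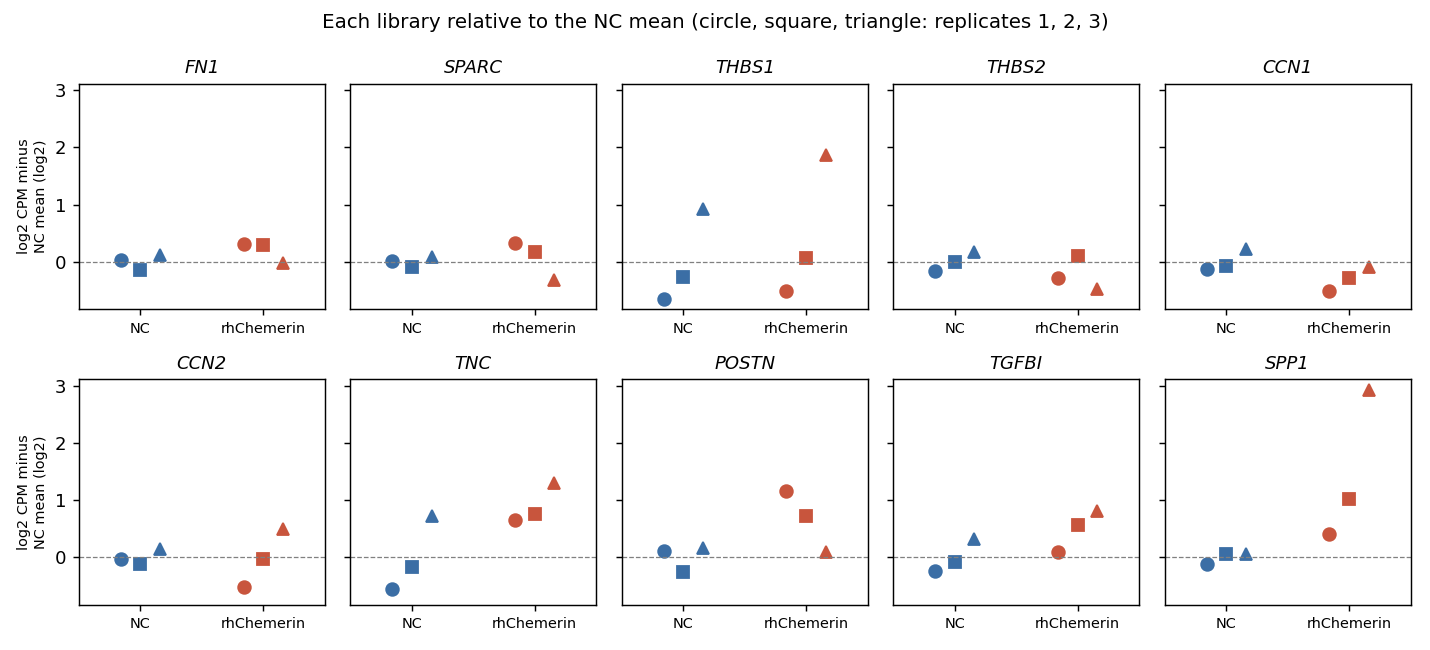
TMM-normalized log2 CPM of each library minus the NC mean of the gene, one panel per gene, NC in blue and rhChemerin in red, with circles, squares and triangles for replicates 1, 2 and 3. In SPP1 all red points lie above the blue ones, from 0.41 to 2.94, and in POSTN the red triangle (0.09) lies among the blue points.

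Over the 6 libraries the genes fell into patterns that ran against each other. Of the 45 pairs, FN1 and POSTN had the highest Pearson correlation of log2 CPM (0.93), followed by TNC and TGFBI (0.93), and THBS1 and CCN2 (0.86). SPARC and CCN2 had the lowest (-0.83). These are descriptions over 6 libraries that share the group difference and the distance of rhChemerin replicate 3. The tested gene outside the set most like each member was, by the same correlation over the 6 libraries, MAP7D3 for FN1 (0.991), CENPH for SPARC (0.992), GPR39 for THBS1 (0.997) and ZNF585A for THBS2 (0.984). For CCN1 it was DGKQ (0.994), for CCN2 C11orf24 (0.997), for TNC FASTKD2 (0.998), for POSTN ZNF552 (0.995), for TGFBI KIFBP (0.997) and for SPP1 NCL (0.998). Each was picked as the highest value among all tested genes outside the set.

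In the lists that follow, counts are read beside the shares over all tested genes, which were 9.05% for a DESeq2 call and 32.5% for groups that do not overlap. Other matricellular genes were counted from a list of 26, of which 20 were in the tables and 16 were tested. None was called by edgeR (0 of 16), 5 had a log2 fold change above 0 and 11 below, and the median was -0.25, beside 0.01 over all tested genes. The groups did not overlap in 2 that were higher and 3 that were lower. DESeq2 called 1 in each direction. VTN, the gene of the adhesion protein vitronectin, had 63.5, 68.0 and 63.9 FPKM in NC cells and 37.9, 28.7 and 16.5 FPKM in treated cells. With a log2 fold change of -1.12 ± 0.23 (standard error), it had no edgeR call but a DESeq2 one (adjusted p = 0.0826 with edgeR and 2.55e-04 with DESeq2). SPOCK1, the gene of a SPARC-related proteoglycan, had a log2 fold change of 0.85 (adjusted p = 0.144 with edgeR and 0.0230 with DESeq2), with overlapping groups, and without rhChemerin replicate 3 its log2 fold change was 0.59 and its DESeq2 call was lost (adjusted p = 0.283). CCN3, another CCN gene, had 17.6, 13.8 and 21.0 FPKM against 21.1, 21.9 and 38.8 FPKM, a log2 fold change of 0.79 (adjusted p = 0.178, edgeR), with groups that did not overlap, and 0.38 without rhChemerin replicate 3. Without that library VTN had a log2 fold change of -0.89 and an edgeR call (adjusted p = 0.0248). THBS4 and SPOCK2 stayed under 0.5 FPKM in every library. Their log2 fold changes were -1.28 and -0.80 with all libraries, and -0.75 and -1.34 without rhChemerin replicate 3.

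Receptors of these proteins were counted from a list of 19, of which 15 were tested. None was called by edgeR (0 of 15), and 11 had a log2 fold change above 0 with a median of 0.12. DESeq2 called 2 higher (ITGB1 and ITGAV) and 1 lower (SDC2). In this list the groups did not overlap in 2 that were higher and 2 that were lower. ITGB1, the beta subunit of the main fibronectin receptor, had 302, 294 and 318 FPKM in NC cells and 371, 446 and 401 FPKM in treated cells, without overlap (log2 fold change 0.55, adjusted p = 0.0868 with edgeR and 5.99e-04 with DESeq2). Its partner ITGA5 had a log2 fold change of 0.45 (adjusted p = 0.220, edgeR), with overlapping groups. CD44, which binds osteopontin, had 49.5, 55.5 and 82.9 FPKM against 57.4, 124 and 213 FPKM (log2 fold change 1.23, adjusted p = 0.184, edgeR), and here too treated replicate 3 was the highest, with 0.63 in its absence. SDC2, a heparan sulphate proteoglycan, had a log2 fold change of -0.89 (adjusted p = 0.102 with edgeR and 0.00377 with DESeq2), and ITGB5 one of 0.71 (adjusted p = 0.185, edgeR). ITGB5 was at 0.41 and ITGA5 at 0.29 without rhChemerin replicate 3.

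The YAP and TAZ pathway genes and targets other than CCN1 and CCN2 numbered 28, all tested, with 13 above and 15 below 0 and a median of -0.02. edgeR called none (0 of 28), and DESeq2 called 2 higher (AXL and MYOF) and 1 lower (NUAK2). Groups without overlap were found in 4 that were higher and 2 that were lower. The named targets had values in both directions. ANKRD1 had a log2 fold change of -0.62 (adjusted p = 0.429), NUAK2 of -0.76 (adjusted p = 0.0914), AXL of 0.94 (adjusted p = 0.105), NT5E of 0.94 (adjusted p = 0.256) and F3 of 0.75 (adjusted p = 0.512), all with edgeR. F3, the gene of tissue factor, was highest in replicate 3 of both groups, at 28.6 and 54.2 FPKM, as was THBS1. The log2 fold change of F3 turned to -0.36 without rhChemerin replicate 3, where that of NT5E was 0.48 and that of ANKRD1 -1.07.

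Of 15 TGF-beta response genes other than TGFBI, 14 were tested, with 9 above and 5 below 0, a median of 0.08 and none called by edgeR (0 of 14). LTBP1, which encodes a latent TGF-beta binding protein, had a log2 fold change of -0.81 (adjusted p = 0.0707 with edgeR and 2.74e-05 with DESeq2), with 5.30 to 6.04 FPKM in NC cells and 2.54 to 3.14 FPKM in treated cells. It was the list's 1 call with DESeq2. Across the list, the groups did not overlap in 0 that were higher and 2 that were lower. LTBP2 (-0.35), TAGLN (0.28) and TGFB1I1 (0.23) had smaller log2 fold changes and adjusted p from 0.233 to 0.383 (edgeR). Without rhChemerin replicate 3, LTBP1 was called by edgeR (-0.92, adjusted p = 0.0248), TAGLN was at 0.42 with a DESeq2 call (adjusted p = 0.0406) and TGFB1I1 at 0.12.

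The 19 crosslinkers and proteases that act on these proteins were all tested, with 13 above and 6 below 0, a median of 0.19 and none called by edgeR (0 of 19). The groups did not overlap in 6 that were higher and 4 that were lower. DESeq2 called 3 higher (LOX, ADAMTS1 and ADAM12) and 1 lower (LOXL1). ADAMTS1, a protease that cleaves proteoglycans and thrombospondins, had 12.6, 13.6 and 17.5 FPKM against 19.7, 26.4 and 35.6 FPKM (log2 fold change 1.05, adjusted p = 0.103 with edgeR and 0.00174 with DESeq2). PLAT and PLAUR, of the plasminogen system, had log2 fold changes of 1.41 and 1.20 with overlapping groups (adjusted p = 0.256 and 0.219, edgeR). LOXL4 and ADAMTS4, both at low levels, had -1.20 and -2.04 (adjusted p = 0.174 and 0.154, edgeR). Leaving out rhChemerin replicate 3 put PLAT at 0.63 and PLAUR at 0.55. In the same fits the DESeq2 call of LOX was lost (adjusted p = 0.113) and edgeR called ADAM12 (adjusted p = 0.0333) and LOXL1 (adjusted p = 0.0411).

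**Figure D4:**
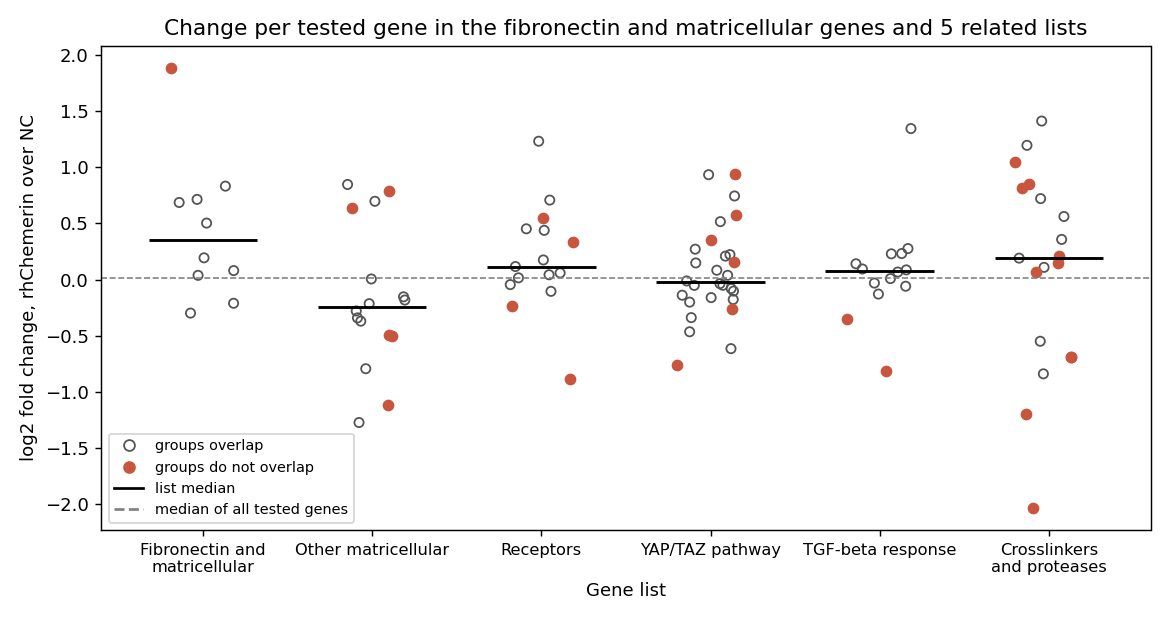
Fitted log2 fold change (edgeR) of each tested gene in the fibronectin and matricellular set and in 5 related lists, with filled points where the groups do not overlap on TMM log2 CPM, a black line at each list's median and a dashed line at the median of all tested genes (0.01). The set's median is 0.35 and that of the other matricellular genes -0.25.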

How the data were processed

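Total RNA of 12Z cells was sequenced as paired-end reads. Per the submitters' notes and the study's methods, the authors used fastp for trimming, HISAT2 for alignment to GRCh38.p13 and HTSeq for read counts by gene. The deposited values are those raw counts and, from the authors as well, FPKM for the same 16279 genes. In 79491 values with at least 10 counts, the FPKM equalled the count divided by the total and by a fixed gene length (tolerance 0.001). Annotation release and strand setting are not given in the sources used here.

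Counts were tested in R 4.3.3 with edgeR 4.0.16 (TMM, filter on low counts with the group, quasi-likelihood test, Benjamini-Hochberg adjustment over 13311 genes, call at an adjusted p under 0.05). Standard errors were derived from the F statistic. Overlap of groups was read on log2 CPM with a prior count of 2. As alternatives, DESeq2 1.42.0 was run, limma 3.58.1 was run on log2 FPKM with 1 or 0.1 added, and so were other scalings, filters and edgeR settings, a replicate block, and each library left out. DESeq2 with a library left out, and DESeq2 and limma with the block, were added after seeing the data. The tests were tried on simulated counts.

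The text names all 10 genes of the set, up to 5 genes with the largest fold change from each related list, and genes with a role beside a member. One gene of the TGF-beta response list is not reported here. ITGAV, MYOF, LOX, ADAM12 and LOXL1 (DESeq2 calls of their lists) and the single markers were named after their values were seen. The genes and lists were chosen with earlier results of these data known. Positions were matched by gene ID to GENCODE 29, and promoters came from RefSeq.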

Additional observations from a re-analysis of the deposited data

How the results depend on the processing

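Of 230 values of the 10 genes under alternatives, 198 kept their direction and stayed uncalled, 14 became called and 18 changed direction. SPARC was at -0.074 with limma on log2(FPKM + 1), with or without the replicate block, at -0.074 with 0.1 added and at -0.037 with library size only. Its values with a library left out spanned -0.070 to 0.24 (edgeR), with -0.063 for DESeq2 without rhChemerin replicate 1. CCN2 was at -0.14 with limma (1 added, also with the block), -0.15 (0.1 added) and -0.11 (library size only). With a library left out it was at -0.26 to 0.24 (edgeR), and DESeq2 gave -0.026 without NC replicate 2 and -0.25 without rhChemerin replicate 3. THBS1 was at -0.37 to 1.30 with a library left out (edgeR) and at -0.36 without rhChemerin replicate 3 (DESeq2). With a library left out, the log2 ratio of THBS1 to THBS2 ran from -0.13 to 1.17 and that of TGFBI to POSTN from -0.61 to 0.28. The cause was not tested.

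Over all genes, edgeR called 4, against 1302 with DESeq2, 179 and 23 with limma (1 and 0.1 added), 17 without the filter and 15 with legacy=FALSE. With a library left out, edgeR called 0 to 844. DESeq2 called 658, 283 and 518 without NC replicates 1, 2 and 3, and 2616, 584 and 1695 without rhChemerin replicates 1, 2 and 3. Called genes of the set numbered 0 to 1 (edgeR) and 0 to 4 (DESeq2, with 1, 2 or 4 in the 4 fits that called any). Those without overlap between groups numbered 2 with limma (either pseudocount) or library size only, against 32.5% of all tested genes each. With a library left out they numbered 1 to 5 (2, 3 or 5 in those that differed), with 5 without rhChemerin replicate 3, where 43.9% of all genes tested by edgeR did not overlap. That share was 36.9% to 49.8% over the 6 edgeR fits. The set's median log2 fold change was 0.19 and 0.20 with limma (1 and 0.1 added), beside -0.083 and -0.12 over all genes.

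Deviations of same-numbered libraries correlated at 0.24, 0.0015 and 0.25, and those of differently numbered libraries at -0.31 to 0.11. The labels do not say whether the numbers pair the libraries, and the main fit did not use them. With the replicate block, edgeR called 1 of all genes and 0 of the 10, with CCN2 at -0.014. DESeq2 with the block called 1447 (10.3%) and 4 of the 10 (TNC, POSTN, TGFBI and SPP1), with CCN2 at -0.016. limma with the block called 0.

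Depth was not varied. With 3 libraries a group, the spread between libraries widens the intervals, and for SPP1 counting error was close to that spread in the NC group.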
